A study of Mus musculus with 18 samples.

Results

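The loci described here are the expressed loci without a gene symbol, which are the entries of the deposited table of normalized counts whose symbol is empty. They were selected on their measured level: a mean of at least 50 normalized counts over the 3 libraries of at least 1 of the 6 groups. Of 62197 loci in the table, 37020 had no symbol, and 1298 of these met the level (3.51% of the loci without a symbol). They made up 9.73% of the 13334 loci at that level, the other 12036 of which carried a symbol. Of the 37020, 24008 had no read in any library and 11714 had reads but were under the level. Just inside the level were GSMG0058212 (highest group mean 50.06, LPS WT), GSMG0002740 (50.07, LPS KO) and GSMG0059798 (50.12, confined KO). Just outside were GSMG0024092 (49.92, confined KO), GSMG0005807 (49.91, LPS KO) and GSMG0035536 (49.88, confined KO). The level was met in all 6 groups by 674 members and in 1 group only by 145, and 979 members had a mean over all 18 libraries of at least 50. The largest changes named in each comparison were taken from these 979, a filter that does not use the highest group alone. A member near 0 in some groups can still reach it only through the groups where it is high, so the sizes of such changes are in part selected. For named members outside the 979, values are given without a test.

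Sequencing of polyadenylated RNA does not read only the genes that carry a name. Reads also come from long noncoding RNAs (lncRNAs), from introns of pre-mRNA, from sequence past the annotated ends of genes, from processed pseudogenes (copies of an mRNA that were inserted back into the genome) and from the mitochondrial genome and its nuclear copies. In dendritic cells (DCs), activation by a microbial ligand such as lipopolysaccharide (LPS) raises interferon-stimulated genes and NF-kB targets, whose loci also give unspliced and noncoding RNA.

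The 18 libraries came from mouse DCs grown from bone marrow for 10 days with a supernatant that holds granulocyte-macrophage colony-stimulating factor. Bone marrow was either wild type for cytosolic phospholipase A2 (cPLA2; WT below) or knocked out for it (KO below). In the study the knockout is conditional, with Cre under the Itgax (CD11c) promoter, so deletion depends on that promoter being active in the cultured cells. Each genotype had 3 libraries of nonconfined DCs taken at the end of culture, 3 of DCs confined to 3 µm in height and harvested 4 h later, and 3 of DCs given 100 ng/ml LPS for 30 min, washed and kept until the next day. The 30 min is the time on the labels, and the study's Methods give a slightly shorter one. The labels do not say whether replicates were separate mice, nor do they give the age or sex of the mice, so the p-values below measure the spread between these libraries. Recovered reads per library ranged from 33027230 to 61300021.

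The labels were checked against markers. Transcripts of the DC markers Itgax, H2-Ab1, H2-Aa, Cd74 and Ciita were abundant in all groups, with Cd74 between 198224 and 319162 normalized counts. Flt3, Cd209a and Dpp4 were lower, at most 141, 179.6 and 523 in any group mean. On confinement their means fell from 119, 154 and 425 to 41.4, 25.4 and 111 in WT. In KO they fell from 141, 179.6 and 523 to 30.4, 34.9 and 139. Ciita fell from 8714 to 4276 in WT and from 9135 to 4520 in KO, and Fscn1 from 15442 to 7968 and from 16973 to 2477. Ccr7 rose from 15884 to 32945 in WT and fell from 16451 to 8919 in KO. Genes of other myeloid cells were also read: the sums of 8 neutrophil genes were 227148, 335919, 138092, 318013, 277844 and 274818 in nonconfined WT, nonconfined KO, confined WT, confined KO, LPS WT and LPS KO libraries, with S100a9 the most abundant. Sums of 6 eosinophil genes were 30343, 71549, 8204, 19816, 34287 and 34409 in the same order, with Prg2 the most abundant. Sums of 8 macrophage genes, mostly Csf1r, were 55654, 61357, 53052, 56660.3, 47819 and 46719, and of 6 mast cell and basophil genes 6251, 9279, 2907, 4944, 5836 and 6012. Of these 6, Cpa3, Mcpt8, Ms4a2 and Tpsb2 fell on confinement in both genotypes. Kit rose, from 737 to 951 in WT and from 813 to 1414 in KO. By the study's methods, granulocytes do not attach and are lost in culture, macrophages attach firmly, and the loosely attached cells are taken as DCs. Of 3 red cell genes, Alas2 had no read in any library, and Hba-a1 and Hbb-bs were at most 12.5 and 9.87 in any library. Pla2g4a, the gene of cPLA2, had means of 718, 541, 1373, 904, 980.4 and 1042 in that order, so a level near 0 was not seen in libraries labelled KO. Fewer cells of a type and less RNA per cell cannot be told apart in bulk RNA.

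Y-linked genes set the LPS libraries apart from their genotype labels. Ddx3y was at 3.05, 0 and 1.97 in nonconfined WT, 949, 981 and 874 in nonconfined KO, 0, 1.72 and 2.37 in confined WT and 1036, 920.2 and 948 in confined KO libraries. It was therefore near 0 in all WT and high in all KO libraries of the nonconfined and confined groups, so that genotype and the source of the Y-linked reads cannot be told apart there. In the LPS libraries the order was broken: 1271, 0 and 662 in LPS WT and 2.12, 1476 and 783 in LPS KO. The libraries labelled LPS WT 1 and LPS KO 2 were high, those labelled LPS WT 2 and LPS KO 1 were at or near 0, and those labelled LPS WT 3 and LPS KO 3 lay between. Eif2s3y, Kdm5d and Uty followed the same order. Xist, which is transcribed from the inactive X chromosome of females, was abundant in every library, those high in Y-linked genes included: 27953, 33681 and 30681 in nonconfined WT, 12153, 19081 and 14328 in nonconfined KO, 22734, 33482 and 29759 in confined WT, 16979.6, 24835 and 20600 in confined KO, 26298, 27791 and 27224 in LPS WT and 30960.2, 16450.2 and 21654 in LPS KO libraries. Nonconfined KO libraries were below nonconfined WT ones without overlap, confined WT and KO libraries overlapped, and libraries high in Y-linked genes cannot be assigned to a single sex by these genes. Pla2g4a in the LPS libraries was 1005, 969 and 967 (WT) and 1065, 1032 and 1028 (KO), where KO was slightly above WT without overlap, whereas KO was below WT in the nonconfined (697, 686 and 770.4 against 548, 542 and 533) and confined groups. Results on genotype within the LPS libraries therefore rest on labels that these genes go against, and the 5 comparisons that do not use the LPS libraries were also fitted without them.

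Where the members lie was read from their coordinates (build GRCm39) and from the GENCODE annotation of that build. Member spans ran from 20 to 3103341 bases, with a median of 2227.5. Of the 1298, 800 (61.6%) overlapped a locus with a symbol, 284 lay downstream of the nearest one, 177 upstream, and for 37 neither could be said, among them the 11 on the mitochondrial genome, where no locus carries a symbol. Among the 11714 loci without a symbol that were read but under the level, the share overlapping a locus with a symbol was higher, at 73.4%. Of the members that overlapped none, 280 were within 5000 bases of the nearest one, and over all of them that had one on their chromosome the median distance was 3078 bases. Every chromosome held members: 97 lay on chromosome 2, 94 on chromosome 11, 34 on X, 11 on the mitochondrial genome and 1 on Y.

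By their overlap with GENCODE genes and by sequence alignment, the members fell into 9 position classes. The largest by number held 443 members (34.1%) that lay mostly in introns, followed by 374 mostly in exons, 181 lncRNAs and 127 copies of protein-coding transcripts. A further 105 matched entries of the GENCODE class TEC (transcribed loci that await experimental evidence), 30 lay outside all GENCODE genes and 23 in other genes. The remaining classes were the 11 members on the mitochondrial genome and 4 nuclear copies of mitochondrial DNA. An empty symbol therefore did not mean an unannotated place, since 30 of the 1298 members were classed as outside GENCODE genes. For intron members the median mean over the 18 libraries was 68.5 and for copies 1234.

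Counts were spread very unevenly among members. The median member had a mean of 87.0 normalized counts over the 18 libraries, 136 members reached 1000, 40 reached 10000, and the 10 highest held 59.6% of all member counts. These 10 were 5 loci of the mitochondrial genome, 2 nuclear copies of mitochondrial DNA and 3 copies of protein-coding transcripts. Together the members took 7.77% ± 0.186 (SD, n = 3) of all counts in nonconfined WT and 7.90% ± 0.0791 in nonconfined KO libraries. The share was 6.53% ± 0.0603 in confined WT, 6.79% ± 0.254 in confined KO, 6.20% ± 0.104 in LPS WT and 6.43% ± 0.0540 in LPS KO libraries. All nonconfined libraries were above all others, with a lowest nonconfined share of 7.57% and a highest share elsewhere of 7.07%.

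Mitochondrial RNA, made from a small circular genome that encodes subunits of the respiratory chain and its own ribosomal RNAs, carried most of that difference. The 15 mitochondrial members, nuclear copies included, held 53.5% of member counts and took 4.34% ± 0.154 of all counts in nonconfined WT, 4.48% ± 0.0439 in nonconfined KO, 3.32% ± 0.0508 in confined WT, 3.46% ± 0.362 in confined KO, 3.25% ± 0.135 in LPS WT and 3.47% ± 0.0921 in LPS KO libraries. The other 1283 members moved less, from 3.43% ± 0.0406 in nonconfined WT to 3.21% ± 0.0332 in confined WT and 2.95% ± 0.0553 in LPS WT libraries. Total normalized counts were larger in LPS libraries, so the share of the mitochondrial members fell there while their normalized counts did not: the 11 loci on the mitochondrial genome summed to 1094554 in nonconfined WT, 930358 in confined WT and 1170716 in LPS WT libraries.

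The highest member, GSMG0060114 (chrM:5325-6941, mt-Co1, a cytochrome c oxidase subunit), read 538825, 587854 and 565767 in nonconfined WT and 481128, 487579 and 470043 in confined WT libraries. It read 586635, 585569 and 580276 in nonconfined KO and 517594, 411484 and 480135 in confined KO libraries. All confined libraries were below all nonconfined ones, by a small amount (log2 fold change -0.23, SE 0.06, adjusted p 0.00376 in WT, log2 fold change -0.32, SE 0.06, adjusted p 0.000314 in KO, limma). GSMG0060112 (chrM:1094-3841) has the ribosomal RNA gene mt-Rnr2 as its closest GENCODE match. Its span is 2748 bases, and its reads were not split among the genes it may hold. It fell by 0.36 (WT) and 0.50 (KO) on the log2 scale, with limma adjusted p 0.000223 and 7.08e-06. The short locus GSMG0060125 (chrM:9203-9888) has mt-Nd3 as its closest GENCODE match. Its span also overlaps the mitochondrial stretch that GSMG0060116, described below, copies, and it has 1 other genome position, with 99.7% identity. This locus was the 1 mitochondrial genome member past the fold threshold on confinement, in KO only. It read 721, 608 and 664 in nonconfined against 264, 295 and 303 in confined KO libraries (log2 fold change -1.20, SE 0.14, limma adjusted p 5.67e-07). Its change in WT was -0.89, and the difference between the genotypes was not past the threshold (interaction log2 value -0.31, adjusted p 0.287). Scaling to equal library totals moved the median of all loci from -0.01 to -0.23 for confinement in WT and from 0.01 to -0.02 in KO. The shift in WT is of the size of the change of mt-Co1 in the main fit and in the direction of its fall.

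A pair of the highest members lie on chromosome 1 inside Lmbrd1, but their bases are those of the mitochondrial genome. GSMG0060116 (chr1:24652269-24653895) is on the minus strand a copy of chrM:7764-9390 with 0 differences over 1627 bases, and GSMG0060115 (chr1:24653960-24654649) a copy of chrM:7010-7699 with 0 differences over 690 bases. They read 275843 and 109051 on average in nonconfined WT libraries, while Lmbrd1, which encodes a lysosomal membrane protein, read 1457. No read can be assigned to either place by its bases, and how reads with several places were counted is not stated. The first 60 bases of each are printed with their mitochondrial counterparts (GRCm39) to show the identity. Capitals would mark differing bases, and there were none.
GSMG0060115, chr1:24654590-24654649, minus strand: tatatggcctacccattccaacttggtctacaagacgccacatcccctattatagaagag
mitochondrial genome, chrM:7010-7069, plus strand: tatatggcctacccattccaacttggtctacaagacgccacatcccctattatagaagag
GSMG0060116, chr1:24653836-24653895, minus strand: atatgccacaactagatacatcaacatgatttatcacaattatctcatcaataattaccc
mitochondrial genome, chrM:7764-7823, plus strand: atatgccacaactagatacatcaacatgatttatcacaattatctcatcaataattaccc

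Both nuclear copies were lower in confined than in nonconfined KO libraries. GSMG0060115 (mt-Co2) read 121075, 115404 and 122747 in nonconfined KO and 111534, 90848 and 90748 in confined KO libraries, against 105022, 115761 and 106371 and 100080.1, 98439 and 97558 in WT. GSMG0060116 (a stretch that includes mt-Atp6 and mt-Co3) read 303084, 292830.3 and 299636 in nonconfined KO and 272849, 204877 and 213844 in confined KO libraries, against 279176, 276595 and 271759 and 312251, 279153 and 292177 in WT. At GSMG0060116 the confined KO libraries 2 and 3 were below every other library of the 6 groups, and confined WT libraries overlapped nonconfined WT ones. Its interaction of confinement and genotype was -0.48 on the log2 scale (SE 0.11, adjusted p 0.00203), below the fold threshold. For GSMG0060115 it was -0.16 (adjusted p 0.21). In KO the changes were -0.38 for GSMG0060116 and -0.30 for GSMG0060115, and in WT 0.09 and -0.14, and the difference between both loci was not tested.

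Copies of protein-coding transcripts held 32.6% of member counts in 127 loci. Their median identity to the gene's transcript was 99.8%, and 55 were identical over the aligned bases. For 121 copies the similar gene had a locus of its own in the table. In 49 of these the copy had the larger mean, and in 14 it had at least 10 times the mean of the named gene. These are counts per locus, not per length. Bases that are identical cannot show from which of these places a read came, so neither locus by itself gives the level of the gene.

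The highest copy was GSMG0051025 (chr13:74554941-74555180), identical to Ftl1, the ferritin light chain that stores iron. It read 54678, 54873 and 54926 in nonconfined WT, 83366, 71121 and 76068 in nonconfined KO, 101044, 94945 and 98876 in confined WT and 133624, 135173 and 133298 in confined KO libraries. Confined libraries were above nonconfined ones of the same genotype and KO above WT, without overlap. The fitted changes were 0.84 (confinement, WT), 0.81 (confinement, KO) and 0.48 (KO against WT, nonconfined), and at the locus named Ftl1 on chromosome 7 they were 0.76, 0.70 and 0.49, so the copy moved as its gene did. GSMG0056295 (chr5:5831525-5833635), a copy of Hspa8 (a constitutive chaperone) with 99.4% identity, fell in both genotypes on confinement, from 53271 ± 729 to 26919 ± 1114 in WT (SD, n = 3; log2 fold change -0.99, SE 0.06, adjusted p 3.07e-12). In KO it went from 48916 to 24661 (log2 fold change -0.99, SE 0.06, adjusted p 8.58e-12), and the interaction was not past the threshold (adjusted p 0.985). The locus named Hspa8 had fitted changes of -0.98 in WT and -0.93 in KO.

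For other genes nearly all counts sat on the copy. GSMG0057295 (chr9:96777667-96778402), identical to Ppia (cyclophilin A, a peptidyl-prolyl isomerase), had a mean of 66585 against 435 at the locus named Ppia on chromosome 11. The same held for Rps23 (25816 against 333), Rps16 (24503 against 471), Rpl12 (27518 against 853) and Fau (26773 against 898), each given as the mean of the copy against that of the named locus over 18 libraries. All are genes of the cytosolic ribosome except Ppia. GSMG0057295 changed little, with 67609, 68746 and 69735 in nonconfined WT and 59594, 56808 and 57676 in confined WT libraries (log2 fold change -0.24, SE 0.04, adjusted p 4.54e-05). Its coding start is printed beside that of Ppia, and the start of GSMG0059961, a copy of Rps27 that had no locus of its own among those matched, beside that of Rps27 (GRCm39). The bases come from the genome, spliced for the genes by the canonical GENCODE transcript. Capitals would mark differing bases, and there were none in 90.
GSMG0057295, chr9:96777711-96777800, plus strand: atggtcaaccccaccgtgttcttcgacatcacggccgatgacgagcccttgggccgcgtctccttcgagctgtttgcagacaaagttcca
Ppia, coding bases of 5 exons within chr11:6365911-6369607, plus strand: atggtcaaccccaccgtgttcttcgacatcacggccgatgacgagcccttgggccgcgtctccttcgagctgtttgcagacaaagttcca
GSMG0059961, chr9:114811686-114811775, minus strand: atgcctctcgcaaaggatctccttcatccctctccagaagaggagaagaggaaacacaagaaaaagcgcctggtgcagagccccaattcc
Rps27, coding bases of 4 exons within chr3:90120035-90120922, minus strand: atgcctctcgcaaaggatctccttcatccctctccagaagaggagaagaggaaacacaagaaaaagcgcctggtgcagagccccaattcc

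Across copies, the changes with confinement and with LPS followed the gene a copy resembles more than the gene it lies beside. Over 121 copies, Pearson's r between the log2 change of the copy and that of the similar gene's locus was 0.65 for confinement in WT, 0.65 for confinement in KO, 0.85 for LPS in WT and 0.89 for LPS in KO (Spearman 0.74, 0.86, 0.88 and 0.90). Against the nearest locus with a symbol, over 127 copies, r was -0.01, 0.04, 0.20 and 0.02 (Spearman 0.04, 0.01, -0.09 and -0.11). For comparisons that involve genotype, Pearson's r with the similar gene and with the nearest locus was 0.34 and 0.17 for the interaction, 0.50 and 0.20 for KO against WT in confined, 0.24 and 0.39 in nonconfined and -0.09 and -0.04 in LPS libraries. Spearman's values were 0.63 and 0.09, 0.67 and 0.24, 0.44 and 0.06, and -0.09 and -0.07 in the same order, so in nonconfined libraries both measures disagreed on which gene was closer. These are correlations across loci of the same 18 libraries, loci are not independent replicates, and a copy and its gene also share reads.

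Of the comparisons possible among the 6 groups, 8 were fitted, each over all 17875 loci that reached 10 normalized counts in 3 or more libraries, as 1297 of the 1298 members did. A locus was called where limma's adjusted p was under 0.05 and the absolute log2 fold change above 1. Members were selected on the highest of their group means, which favours loci that differ between groups, so the counts below are descriptions and nothing is read from them. The share called over all loci was counted for the main fit only. Counts of members under other scalings or without a library therefore have no such share beside them, and do not show whether members differ from all loci. Changes fitted against groups at or near 0 depend on the pseudocount of 1. Where a compared group had no read at all, a bound is given instead, against the mean that 3 reads over its 3 libraries would give. For the interaction no bound is given, and fitted values are printed. Of values up to 10 reads, 76.3% to 79.0% were even, so the smallest step was mostly 2 reads, and against 2 reads per library each bound would be smaller by a factor of 2.

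Confinement of WT DCs called 232 of 1297 members higher and 68 lower. It compares DCs confined to 3 µm and harvested 4 h later with nonconfined DCs taken at the end of culture, so these groups differ in more than shape. Over all loci tested, 11.4% were called higher and 7.62% lower. Of the 979 members with a mean over 18 libraries of at least 50, 159 were higher and 37 lower, and the median log2 change of these members was 0.11, beside -0.04 for the 11437 loci with a symbol at that level. Under scaling to equal library totals, the split over all members became 179 higher and 114 lower. Intron members gave 100 of the calls higher and 23 lower, and TEC members 26 higher.

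The largest increase was at GSMG0013426 (chr13:55332583-55334460), in an intron of the lncRNA Gm61110, 16011 bases downstream of Fgfr4. It read 41.9, 48.6 and 41.3 in nonconfined WT and 33924, 35454 and 35206 in confined WT libraries. In KO it read 40.0, 62.4 and 29.1 nonconfined and 1136, 1205 and 1218 confined, and in LPS libraries 54860.1, 45435 and 48114 (WT) and 41288, 52291 and 47641 (KO). Nonconfined libraries were lowest, confined KO libraries higher, and confined WT and all LPS libraries highest, without overlap between these 3 levels. The increase on confinement was log2 fold change 9.60, SE 0.16, adjusted p 1.47e-21 in WT and log2 fold change 4.79, SE 0.16, adjusted p 1.13e-15 in KO. The difference between genotypes was itself past the threshold (interaction -4.81, SE 0.22, adjusted p 2.46e-13), and nonconfined WT and KO libraries overlapped (log2 fold change -0.07, SE 0.16, adjusted p 0.865). Fgfr4, a fibroblast growth factor receptor, had no read in any library, and Nsd1, a histone methyltransferase gene on the other side, had group means of 6849, 5939, 7201, 6881, 7093 and 5965 in the order used for the markers, so neither neighbour showed the change.

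Part of this locus occurs again in the genome. Its span had 177 other alignments that cover at least 30% of it and 1 that covers at least 80%, at chr2:75469009-75470660, with 96.5% identity over 1655 bases. That place lies in another member, GSMG0029529 (chr2:75468937-75471620), which is outside all GENCODE genes, and it moved in the same direction: 1121, 1102 and 1051 in nonconfined WT, 5792, 5803 and 5458 in confined WT, 780.4, 996 and 946 in nonconfined KO and 1366, 1378 and 1415 in confined KO libraries. Its LPS values were 7098, 7471 and 6928 (WT) and 7106, 6478 and 6744 (KO). The order of the groups was that of GSMG0013426, but from a higher base, and the change was smaller (log2 fold change 2.38, SE 0.07, adjusted p 1.4e-17 in WT, 0.62 in KO, interaction -1.76, adjusted p 3.05e-12). GSMG0029529 was named for this alignment after its values were seen. The first 120 aligned bases of the pair are printed, since the differing bases (in capitals, 2 in this stretch) are what could part the reads of both places (GRCm39, both plus strand).
GSMG0013426, chr13:55332811-55332930: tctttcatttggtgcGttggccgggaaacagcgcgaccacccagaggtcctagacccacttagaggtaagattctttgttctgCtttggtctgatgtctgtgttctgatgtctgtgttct
GSMG0029529, chr2:75469009-75469128: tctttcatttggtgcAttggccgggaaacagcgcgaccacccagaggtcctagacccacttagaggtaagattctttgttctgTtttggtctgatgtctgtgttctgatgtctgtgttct

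The next largest increases were smaller in counts. GSMG0046814 (chr13:21948401-21952001, in the lncRNA Gm61014 among the histone genes of chromosome 13) read 0, 30.7 and 0 in nonconfined WT and 157, 289 and 225 in confined WT libraries. In LPS libraries it read 1298, 1262 and 821 (WT) and 939, 1303 and 1149 (KO). All confined WT libraries were above all nonconfined WT ones, and LPS libraries higher again (log2 fold change 6.10, SE 1.12, adjusted p 7.8e-05 for confinement). The span has 13 other positions in the genome at 80% of its length or more. GSMG0012912 (chr12:119121768-119122698) lies in an exon of Itgb8, the integrin subunit that binds latent TGF-beta, 1034 bases past the end of the locus that carries that symbol. It had no read in any nonconfined library and 65.7, 56.6 and 77.0 counts in confined WT, 0, 2.13 and 0 in confined KO, 162, 180.3 and 182 in LPS WT and 175, 162 and 204 in LPS KO libraries. Confined WT libraries were thus at least 76.7-fold above nonconfined WT ones, with the confined KO libraries near 0. Itgb8 itself read 119, 135 and 163 in confined WT and 3.24, 1.07 and 1.82 in confined KO libraries, high and near 0 where the member was. The fitted interaction of confinement and genotype was -5.52 for the member (limma adjusted p 3.59e-07) and -5.59 for Itgb8 (limma adjusted p 2.02e-07). The size for the member depends on the pseudocount, since no nonconfined library had a read, and its interaction was not past the threshold in edgeR (adjusted p 1).

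The largest decreases in WT were at GSMG0015782, GSMG0012330 and GSMG0012895. GSMG0015782 (chr14:44162846-44170868, Gm8113) lies 1793 bases upstream of Ear10, in a cluster of eosinophil-associated ribonuclease genes. It read 149, 157 and 126 in nonconfined WT and 26.1, 32.6 and 11.8 in confined WT, and 342, 384 and 374 and 122, 109.8 and 127 in the KO libraries (log2 fold change -2.67, SE 0.27, adjusted p 2.32e-08 in WT). KO libraries were above WT ones in both states without overlap, as were the group means of the eosinophil sums given above. Those sums also fell on confinement in both genotypes, and their part in this result was not tested. Epx, Prg2, Ear1 and Ear2 went as the sums did. Siglecf was lower in KO (943 against 1402 nonconfined, 1103 against 1447 confined). Ccr3 was lower in confined KO than in confined WT (61.3 against 190). GSMG0012330 (chr12:92849447-92858020, lncRNA Gm40892), 525212 bases from the nearest locus with a symbol, fell from 297, 299 and 312 to 62.8, 59.2 and 41.5 in WT and from 203, 236 and 238 to 70.1, 42.7 and 64.7 in KO. All confined and all LPS libraries were below all nonconfined ones (log2 fold change -2.48, SE 0.24, adjusted p 1.12e-08 in WT, log2 fold change -1.94, SE 0.24, adjusted p 8.08e-07 in KO, interaction adjusted p 0.268). GSMG0012895 is the immunoglobulin heavy-chain region and is described with the light-chain region below.

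In KO DCs, confinement called 169 members higher and 53 lower of 1297, beside 6.43% and 5.53% of all loci tested. Among the 979, 108 were higher and 30 lower, with a median log2 change of 0.16 beside -0.03 for the loci with a symbol. A large increase was at GSMG0035247 (chr3:50354731-50358732, a TEC locus inside Slc7a11, the cystine transporter). It read 1.57, 0 and 5.82 in nonconfined KO and 23.7, 118 and 74.7 in confined KO libraries, and 1.52, 1.71 and 1.97 and 43.5, 83.2 and 52.1 in WT. Every confined library was above every nonconfined one, by log2 fold change 4.55, SE 0.56, adjusted p 8.94e-07 in KO and log2 fold change 4.42, SE 0.56, adjusted p 7.05e-07 in WT. Slc7a11 rose as well, from 5988 to 50760.4 in KO and from 4599 to 59767 in WT.

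GSMG0053559 (chr6:128623645-128624062, a stretch that matches Tom1) had a larger fitted change, and its counts varied within groups: 0, 0 and 0 in nonconfined KO, 45.3, 147 and 106 in confined KO, 67.1, 109 and 0 in nonconfined WT and 0, 0 and 338 in LPS KO libraries. Confined KO libraries were at least 111.1-fold above nonconfined KO ones. Values of 0 and values of the same size as in confined KO occurred within the same group, and without the library confined KO 2 the adjusted p rose from 0.0173 to 0.0553. Among the largest decreases were GSMG0060123, described with the ribosomal RNA region below, and GSMG0006510 (chr10:95097091-95100840, in the lncRNA Gm67624 inside Cradd). GSMG0006510 read 159, 147 and 136 nonconfined and 15.1, 46.9 and 29.2 confined in KO, and 189, 187 and 179 and 35.8, 37.7 and 46.2 in WT. Nonconfined libraries were above all others in both genotypes (log2 fold change -2.37, SE 0.31, adjusted p 1.9e-06 in KO, -2.19 in WT).

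The test of whether confinement acts differently by genotype, the interaction, called 47 members higher (the change was more positive in KO) and 108 lower, beside 1.11% and 6.56% of all loci. Leaving out 1 library at a time gave 27 to 56 higher and 102 to 117 lower, so the count of higher members rests on single libraries. Among the 979, 30 were higher and 77 lower. Under equal totals the split over all members was 92 higher and 92 lower, and that scaling shifted the median of all loci from 0.05 to 0.24, so the balance of directions rests on the scaling. The lower calls were spread over exon (31), intron (30) and lncRNA (27) members.

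Members that kept or gained signal in confined KO DCs were led by 3 loci. GSMG0008184 (chr11:100912269-100913819, a lncRNA inside Atp6v0a1, a subunit of the lysosomal proton pump) read 202, 193 and 255 nonconfined and 92.8, 173 and 175 confined in WT, and 119.9, 202 and 149 and 345, 371 and 332 in KO. The confined KO libraries stood above all others, LPS included (interaction 1.78, SE 0.31, adjusted p 0.000131), and the library confined WT 1 was the lowest. GSMG0029078 (chr2:27985489-28017743, lncRNA F730016J06Rik, 10591 bases upstream of the ficolin gene Fcnb) read 247, 219 and 184 and 58.9, 67.7 and 65.1 in WT, and 190.4, 212 and 220.3 and 189, 187 and 178 in KO. Confined WT libraries were below all other libraries, and confined KO libraries were only slightly below nonconfined KO ones (-1.74 in WT, -0.17 in KO, interaction 1.57, SE 0.20, adjusted p 2.67e-06). Fcnb followed, at 327 in confined WT against 736 in confined KO libraries. The neutrophil sums given above also fell more in WT than in KO on confinement, and their part in this result was not tested. GSMG0027496 (chr19:17357985-17359957, outside GENCODE genes, 7775 bases upstream of Gcnt1) had the smallest counts of the 3, 30.9, 67.7 and 85.3 in confined WT and 91.7, 109.8 and 143 in confined KO libraries (interaction 1.64, adjusted p 0.0116). Its WT and KO libraries did not overlap when confined and overlapped when nonconfined, at 114, 147 and 105 (WT) and 58.8, 115 and 65.0 (KO).

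On the other side were GSMG0012912 and GSMG0013426, given above, and GSMG0048321 (chr7:45108893-45109724), a TEC locus that overlaps an end of Ftl1. It read 30.5, 24.7 and 87.5 in nonconfined WT, 489, 263 and 208 in nonconfined KO, 492, 559.9 and 271 in confined WT and 122, 199 and 183 in confined KO libraries. Nonconfined KO and confined WT libraries were above all nonconfined WT and confined KO ones (interaction -4.20, SE 0.81, adjusted p 0.000426), a pattern that Ftl1 did not share and that returns below.

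Confined KO against confined WT DCs called 43 members higher and 126 lower, beside 2.79% and 7.31% of all loci, and 25 and 80 among the 979. Under equal totals the split was 74 higher and 105 lower. The 3 largest decreases were GSMG0012912 (-5.52), GSMG0013426 (-4.88) and GSMG0062469 (-4.49). GSMG0062469 (chr15:6709605-6711543), in an intron of the lncRNA Gm62038 and with 16 other genome positions, read 55.1, 81.5 and 67.5 in confined WT, 4.32, 4.27 and 0 in confined KO, and 2.29, 0 and 0 in nonconfined WT libraries. Confined WT and LPS libraries held nearly all of its counts (LPS WT 172, 182 and 184, LPS KO 191, 264 and 217), and the adjusted p of the difference between confined KO and WT was 8.35e-07. The largest increases, GSMG0037234, GSMG0017440 and GSMG0044491, followed Ddx3y and are described with it below.

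In nonconfined DCs, KO against WT called 26 members higher and 15 lower, beside 0.85% and 0.302% of all loci, and 18 and 7 among the 979. Leaving out 1 library at a time moved the counts over all members between 15 and 27 higher and between 6 and 28 lower, and without nonconfined KO 2 they were 27 and 28, so neither the counts nor their balance is steady. The share called, 3.16% of the members tested, was 1.62% without the library nonconfined WT 2, 2.08% without nonconfined WT 3 and 1.93% without nonconfined KO 1. The largest decreases were GSMG0035396, GSMG0001193 and GSMG0035858. GSMG0035396 (chr3:68775251-68777602, a TEC locus that overlaps an end of 1110032F04Rik) read 4.57, 3.41 and 1.97 in WT and 1.57, 0 and 0 in KO, a difference of a few reads (log2 fold change -1.61, SE 0.40, adjusted p 0.0149) that missed the threshold in 8 alternatives, among them the fits without nonconfined WT 1 (adjusted p 0.0687), nonconfined WT 2 (0.0511) and nonconfined KO 3 (0.0695). GSMG0001193 (chr1:173459422-173460855) lies in an intron of Ifi209, a DNA-binding interferon-inducible gene of the p200 family, and read 40.4, 35.0 and 25.5 in nonconfined WT, 11.0, 9.31 and 12.6 in nonconfined KO, 94.7, 146 and 150.4 in confined WT and 4.32, 8.53 and 5.47 in confined KO libraries. WT was above KO in both states without overlap, and the gap widened on confinement (log2 fold change -1.52, SE 0.28, adjusted p 0.00185 nonconfined, log2 fold change -4.22, SE 0.28, adjusted p 6.77e-11 confined, interaction -2.70 with adjusted p 2.09e-05). Ifi209 read 2369, 1870.2, 6991 and 673 in the same groups, and its nonconfined difference of -0.34 was under the fold threshold. GSMG0035858 (chr3:106450985-106453702, the exonic end of Cept1, a phospholipid synthesis enzyme) read 38.1, 38.4 and 35.4 in WT and 15.7, 9.31 and 15.5 in KO (log2 fold change -1.43, SE 0.28, adjusted p 0.00253), while Cept1 was higher in KO, at 2059, 1945 and 1846 against 1561, 1704 and 1790.5.

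LPS against nonconfined DCs called 260 members higher and 140 lower in WT (15% and 12.3% of all loci) and 272 and 147 in KO (15% and 12.9% of all loci). Among the 979, the counts were 181 and 87 in WT and 189 and 91 in KO. Scaling to equal totals reversed the balance of directions, to 174 higher and 288 lower in WT and 170 higher and 275 lower in KO, and it shifted the median of all loci to -0.47 and -0.44. These comparisons share the nonconfined libraries with those of confinement, and their division by genotype rests on the LPS labels that Y-linked genes go against. GSMG0013426 had the largest increase in both genotypes (10.10 and 10.10). GSMG0012013 (chr12:55437055-55438287, lncRNA Gm56554 inside the proteasome gene Psma6) read 0, 0 and 0 in nonconfined KO, 251, 151 and 260.3 in LPS KO and 141, 305 and 206 in LPS WT libraries. LPS KO libraries were thus at least 246.8-fold above nonconfined KO ones, and Psma6 rose less, from 5262 to 14848. GSMG0062469 and GSMG0012912 were also absent from nonconfined KO libraries, and LPS KO libraries were at least 250.4-fold and at least 201.5-fold above them. All 3 of these members reach a mean of 50 over the 18 libraries through the LPS libraries, so their place among the largest increases is in part selected.

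Of the largest decreases with LPS, 3 had a gene close by that fell with them. GSMG0029220 (chr2:36147312-36148602), outside GENCODE genes and 5031 bases downstream of Ptgs1 (cyclooxygenase-1, a prostanoid synthesis enzyme), fell from 552, 612 and 517 to 38.0, 34.8 and 42.0 in WT and from 740.4, 632 and 636 to 35.0, 45.8 and 38.2 in KO. Confined libraries lay between, at 211, 207 and 178 (WT) and 346, 379.6 and 312 (KO), with no overlap among the 3 states. The change with LPS was log2 fold change -3.84, SE 0.13, adjusted p 1.92e-16 in WT and log2 fold change -4.05, SE 0.13, adjusted p 7.82e-17 in KO, and Ptgs1 went from 12999.7 over 4314 (confined) to 1620.3 (LPS) in WT. GSMG0045055 (chr6:125061830-125062814), 823 bases downstream of the lysophosphatidic acid receptor gene Lpar5, fell from 198, 206 and 175 to 20.2, 9.15 and 9.33 in WT, and Lpar5 from 812 to 63.4. GSMG0011533 (chr12:106050629-106054913, lncRNA Gm46378) fell from 187, 163 and 183 to 14.9, 22.9 and 12.3 in KO, and Vrk1, the nearest tested gene, from 13391 to 2319. GSMG0047107 (chr6:124776286-124779308), which has 198 other genome positions, fell in WT from 512, 562 and 625 to 0, 10.1 and 118, with LPS KO values of 212, 149 and 0, a wide spread within a group (SE 1.45).

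KO against WT in the LPS libraries called 0 members higher and 0 lower with limma (0% of all loci in either direction), 0 with edgeR and 0 with DESeq2, while 76 of 1297 members had an unadjusted p under 0.05. The Y-linked genes go against the labels of these libraries, so nothing about genotype is read from it. For GSMG0013426 the LPS groups overlapped (log2 fold change -0.07, adjusted p 1).

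Interferon-stimulated genes encode antiviral proteins, and their loci were looked up with a list of 50 such genes. Members whose nearest locus with a symbol is on the list numbered 6, beside 5 genes. Confinement of WT called all 6 higher, the interaction called all 6 lower, and LPS called all 6 higher in both genotypes, while confinement of KO called 1 of them, lower. Over all loci tested, 11.4% were called higher on confinement of WT, 6.56% lower in the interaction, 15% higher with LPS in either genotype and 5.53% lower on confinement of KO. GSMG0037712 (chr4:156287726-156295018), the lncRNA AW011738, lies 2451 bases upstream of Isg15, whose product is conjugated to proteins as ubiquitin is. It read 66.3, 59.7 and 58.0 in nonconfined WT, 702, 683 and 665 in confined WT, 73.7, 58.6 and 68.9 in nonconfined KO and 61.5, 60.8 and 52.9 in confined KO libraries. The 3 confined WT libraries stood apart, the other 3 of these groups overlapped, and LPS libraries (628, 718 and 595 in WT, 748, 733 and 679 in KO) were at the height of confined WT ones. The fitted change was log2 fold change 3.46, SE 0.12, adjusted p 2.42e-16 in WT and log2 fold change -0.19, SE 0.12, adjusted p 0.182 in KO (interaction -3.65, adjusted p 1.22e-13). Isg15 read 2457 in nonconfined WT, 18193 in confined WT, 2356 in nonconfined KO and 1071 in confined KO libraries, and unlike its neighbour it was higher with LPS (42242 in WT) than with confinement.

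GSMG0040952 (chr5:115039895-115042002), in exons of Oasl2 (of the oligoadenylate synthetase-like family), read 335, 328 and 317 in nonconfined WT, 1095, 1238 and 1209 in confined WT, 253, 349 and 291 in nonconfined KO and 101, 106 and 119 in confined KO libraries. It rose in WT (log2 fold change 1.85, SE 0.10, adjusted p 8.3e-13) and fell in KO (log2 fold change -1.44, SE 0.10, adjusted p 1.42e-10), and in neither genotype did the groups overlap. Oasl2 as named rose less in WT (0.55) and fell more in KO (-1.98). Intronic members also parted confined WT from confined KO libraries: GSMG0007886 (chr11:83010921-83011445, in Slfn1) read 225, 208 and 200.2 in confined WT against 47.5, 29.9 and 35.5 in confined KO libraries, and GSMG0007427 (chr11:58093093-58095600, in the interferon-induced GTPase gene Igtp) 108, 107 and 128 against 12.9, 8.53 and 25.5. Their log2 differences between confined KO and WT were -2.48 (adjusted p 9.76e-09) and -2.92 (adjusted p 2.43e-07). Nonconfined means in WT and KO were 58.0 and 75.6 for GSMG0007886 and 34.3 and 27.1 for GSMG0007427, and their changes in KO (-0.98 and -0.81) were under the fold threshold. On either side of Slfn8, GSMG0009707 (chr11:82888702-82889827) and GSMG0009709 (chr11:82914578-82915168) had differences of -2.70 and -1.44, and Slfn8 itself -2.97. Of these 6 members, GSMG0009709 had the 1 positive change on confinement of KO (0.93, adjusted p 0.000314, under the fold threshold), where Slfn8 had -1.37.

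NF-kB is the transcription factor that LPS activates, and a list of 38 of its targets found 9 members beside 6 genes. Confinement of WT called 8 of them higher and confinement of KO 3, the interaction 1 lower, KO against WT in confined libraries 4 lower, and LPS 8 higher in either genotype, beside 11.4%, 6.43%, 6.56%, 7.31% and 15% of all loci in the same order. GSMG0036103 (chr3:135356431-135360327, a TEC locus inside Nfkb1, which encodes an NF-kB subunit) read 6.10, 5.12 and 8.84 in nonconfined WT, 94.7, 145 and 105 in confined WT, 1.57, 3.72 and 7.76 in nonconfined KO and 23.7, 61.8 and 39.2 in confined KO libraries. Confined libraries were above nonconfined ones in both genotypes and WT above KO when confined, without overlap (log2 fold change 3.92, SE 0.39, adjusted p 2.03e-08 in WT, log2 fold change 3.07, SE 0.39, adjusted p 1.4e-06 in KO). GSMG0022288 (chr17:13241325-13244339) lies in an intron of the superoxide dismutase gene Sod2 in GENCODE, 2314 bases past the end of the locus that carries that symbol. It went from 11.9 ± 4.47 to 117 ± 31.2 in WT and from 6.12 ± 2.59 to 34.4 ± 9.45 in KO (SD, n = 3). Its increases were 3.20 and 2.36, beside 2.40 and 0.67 for Sod2. GSMG0008648 (chr11:117865190-117867910), 4998 bases upstream of Socs3, an inhibitor of cytokine signalling, was the member with an interaction past the threshold (-2.95, adjusted p 3.79e-07). It read 71.5, 84.9 and 80.5 in confined WT and 11.9, 11.7 and 14.6 in confined KO libraries, beside Socs3 means of 39834 and 5751.

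Birc3, which encodes an inhibitor of apoptosis and ubiquitin ligase, held 3 members in its introns that moved together: GSMG0057796, GSMG0057797 and GSMG0057798. GSMG0057797 (chr9:7867155-7867971) read 244, 262 and 219 in nonconfined WT, 519, 606 and 606 in confined WT and 318, 329 and 278 in confined KO libraries. Changes on confinement of WT were 1.55, 1.25 and 1.15 for the 3 members and 1.37 for Birc3, and in KO 0.69, 0.52 and 0.71, beside 0.29. Malt1, a signalling protease, held GSMG0025977 and GSMG0025976 in introns, and their WT means went from 71.2 to 203 and from 26.6 to 70.0, beside 3546 to 8971 for the gene. Library confined WT 1 was low at GSMG0025976 (27.1, 97.8 and 85.3), so that its WT groups overlapped.

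How far a member moves with its neighbour was described over all members. For confinement in WT, 71.2% of 1286 members changed in the same direction as the nearest locus with a symbol, and Pearson's r between their log2 changes was 0.52 (Spearman 0.57). By class, r in that comparison was 0.76 for the 30 members outside GENCODE genes, 0.74 for the 105 TEC members, 0.64 for exon, 0.55 for intron and 0.48 for lncRNA members. Over all classes r was 0.41 for confinement in KO, 0.43 for the interaction, 0.52 for KO against WT in confined libraries, 0.55 for LPS in WT and 0.54 for LPS in KO. It was 0.18 for KO against WT in nonconfined and 0.02 in LPS libraries, where few or no members were called. Across the 18 libraries, the median r of a member with its neighbour was 0.46 over 1287 members, with 296 above 0.8 and 5 below -0.8. Each pair shares its libraries and scaling, and overlapping pairs may share reads.

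Among members that differ between the genotypes, several followed the Y-linked genes library by library. GSMG0017440 (chr14:69600953-69740814), a span of 139862 bases with 8 GENCODE genes beside Entpd4, read 0, 0 and 0 in nonconfined WT and 96.4, 96.8 and 86.4 in nonconfined KO, 5.80, 0 and 0 in confined WT and 249, 172 and 183 in confined KO libraries. In LPS libraries it read 743, 4.58 and 385 (WT) and 3.18, 755 and 419 (KO). The libraries labelled LPS WT 2 and LPS KO 1, where Ddx3y was at or near 0, were again the low ones. Nonconfined KO libraries were at least 107.6-fold above nonconfined WT ones, and in edgeR the adjusted p was 0.052. GSMG0037234 (chr4:126902536-126903183, with 147 other genome positions) had the same order, at 106, 175 and 153 in nonconfined KO, 191, 167 and 176 in confined KO, 161, 0 and 83.0 in LPS WT and 0, 130.4 and 46.9 in LPS KO libraries. It had no read in confined WT libraries, so confined KO libraries were at least 177.6-fold above them. GSMG0045876 (chr6:28924231-28928010, with 1296 other genome positions) read 11.4, 20.5 and 23.6 in nonconfined WT and 201, 237 and 150.4 in nonconfined KO libraries (log2 fold change 3.37, SE 0.52, adjusted p 0.000335), and 103, 22.0 and 73.7 and 13.8, 78.9 and 64.2 in LPS WT and KO. Whether these members differ by genotype or with the source of the Y-linked reads cannot be told apart. Some granulocyte genes had the same order in LPS libraries. Epx read 10640, 5535 and 8046 (WT) and 5455, 10123 and 8367 (KO), and Ltf 52409, 34871 and 43317 and 34306, 51002 and 43937. Elane had the reverse order (398, 838 and 534, and 780, 390 and 617), as had Mpo. The part of these cells was not tested.

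The 2 longest members, the immunoglobulin regions, showed that order as well, although neither lies on Y. GSMG0044491 (chr6:70192384-70717538, 525155 bases) covers part of the kappa light-chain region, with 36 immunoglobulin genes among 48 GENCODE genes. It read 169, 174 and 200.5 in nonconfined WT, 1568, 1402 and 1432 in nonconfined KO, 63.8, 42.9 and 73.4 in confined WT and 878, 904 and 881 in confined KO libraries, and in LPS libraries 1234, 118 and 707 (WT) and 137, 1373 and 827 (KO). KO was above WT in both states (log2 fold change 3.01, SE 0.65, adjusted p 0.00569 nonconfined, log2 fold change 3.90, SE 0.65, adjusted p 5.2e-05 confined), and the low LPS libraries were again LPS WT 2 and LPS KO 1. GSMG0012895 (chr12:112860601-115963941, 3103341 bases) spans the heavy-chain region, with 232 immunoglobulin genes among 296. It read 2812, 2658 and 2531 in nonconfined WT and 497, 436 and 529 in confined WT, 5221, 4999 and 5346 and 2356, 2301 and 2312 in KO, and 3218, 569 and 1754 and 567, 3125 and 2006 in LPS WT and KO libraries. It was lower in confined libraries of both genotypes (log2 fold change -2.45, SE 0.47, adjusted p 0.000117 in WT, log2 fold change -1.16, SE 0.47, adjusted p 0.0471 in KO) with no overlap. The T cell gene Cd3g had means of 2306, 2855, 700.3, 1029.8, 404 and 406 in the order used for the markers. Other T cell genes were low and did not all follow it. Cd3e fell from 22.7 and 24.8 nonconfined to 8.16 and 8.19 confined (WT and KO). Cd4 stayed at 7.83, 9.07, 8.87 and 8.66 in the nonconfined and confined groups. Cd8a was highest with LPS, at 23.1 and 26.2. The B cell gene Cd79a read 9.14, 9.38 and 15.7 in nonconfined WT, 33.7, 28.9 and 16.5 in nonconfined KO and on average 4.08 in confined WT and 24.6 in confined KO libraries, with KO above WT in both states without overlap, and 17.8, 11.0 and 15.9 and 9.55, 30.9 and 9.87 in LPS WT and KO. Ms4a1, also low, overlapped between the genotypes, and the part of these cells in the results was not tested. The next longest member, GSMG0042343 (chr5:105567258-105936094), runs over Lrrc8c and Lrrc8b, subunits of volume-regulated anion channels. It read 53.1, 58.3 and 73.4 in confined WT and 31.2, 33.3 and 34.4 in nonconfined WT libraries.

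A group of members followed neither state nor genotype alone. GSMG0024764 (chr17:40158070-40158966, Rn18s-rs5, in the ribosomal RNA region of chromosome 17) read 7.62, 5.12 and 53.1 in nonconfined WT, 181, 48.4 and 66.0 in nonconfined KO, 75.4, 139 and 67.5 in confined WT and 19.4, 36.3 and 32.8 in confined KO libraries. In LPS libraries it read 25.8, 22.0 and 16.8 (WT) and 23.3, 9.15 and 118 (KO), the library LPS KO 3 standing alone. Over the 18 libraries 8 other members had a correlation with it above 0.8, while 0 of the 12036 loci with a symbol at the level did. They included GSMG0027498, GSMG0040187, GSMG0048043, GSMG0048321, GSMG0053998, GSMG0060123 and GSMG0060124, and of these GSMG0040187 (chr5:36953571-36955079) had the highest r, 0.895. These lie on chromosomes 1, 5, 7, 8 and 19. GSMG0024764 and those not named above were chosen after their values had been seen.

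GSMG0060123 (chr1:24654791-24655053), a nuclear copy of 263 bases of mt-Co1, swung widely: 42.7, 27.3 and 175 in nonconfined WT, 678, 455 and 436 in nonconfined KO, 263, 509 and 110.2 in confined WT, 31.3, 38.4 and 33.7 in confined KO and 83.8, 50.3 and 772 in LPS KO libraries. Library LPS KO 3 stood apart again. Confined KO was below nonconfined KO without overlap (log2 fold change -3.86, SE 0.72, adjusted p 0.000148), whereas mt-Co1 on the mitochondrial genome changed by -0.32. The locus that carries the symbols Rn18s and Rn45s had group means of 38763, 52742, 62512, 64194, 49234 and 47804. It was not among the loci with a correlation above 0.8, and within groups it agreed in some only, at 38257, 28476 and 49558 in nonconfined WT, 67391, 37040 and 53796 in nonconfined KO and 39202, 34668 and 69541 in LPS KO libraries, with LPS KO 3 again the highest of its group. In confined WT it read 46467, 63164 and 77906, where its highest library was the lowest of GSMG0024764, and in confined KO 64102, 71951 and 56529.9 and LPS WT 62587, 35566 and 49548. What sets this order was not tested.

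Single libraries also stood apart for intronic members. In the library confined WT 1, 32 members were more than 2-fold below both other confined WT libraries, 24 of them intronic, and in confined KO 1 the count was 28, 18 of them intronic. Among the 12036 loci with a symbol, 8 and 3 did so. In confined KO 2, 12 members were more than 2-fold above both others, and in LPS KO 3, 15 were, beside 1 and 2 of the loci with a symbol. How many of these members are intronic was not counted, and in LPS KO 3 the median log2 deviation of intron members was 0.000828. The median log2 deviation of intron members from their group was -0.198 in confined WT 1, -0.188 in confined KO 1 and 0.214 in confined KO 2, while for copies of protein-coding transcripts it was 0.0490, -0.00107 and 0.0123. For intron members it was 0.140 in confined WT 2, 0.0708 in confined WT 3 and 0.0130 in confined KO 3. Same-numbered confined WT and KO libraries thus deviated in the same direction. The sum of intron members was 149782 ± 8435 in confined WT and 113008 ± 11320 in confined KO libraries (SD, n = 3), beside 85922 ± 1802 and 91549 ± 2113 when nonconfined. GSMG0013426 is 1 of them and read 34861, 1187, 43.9 and 43.8 in these groups, so it alone made up most of the gap between confined WT and KO sums and the larger part of the rise in WT.

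The 1 member on the Y chromosome, GSMG0062563 (chrY:38575078-38576315), did not follow the Y-linked genes. It is a copy of Gapdh, the glycolytic enzyme, with 99.4% identity and 107 other genome positions. It read 0, 0 and 42.3 in nonconfined WT, 62.7, 0 and 21.4 in nonconfined KO, 31.9, 55.7 and 0 in confined WT, 32.4, 35.2 and 36.5 in confined KO, 58.1, 92.4 and 66.2 in LPS WT and 111, 91.5 and 53.1 in LPS KO libraries. Libraries at 0 and libraries with reads occurred in both genotypes, so its reads cannot be placed on Y.

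Starts of 286 lncRNA and TEC members were searched on both strands for the letters of the TATA box, TATAAA, from 250 bases before to 50 after the start. They occurred in 47 windows (16.4%), beside 13.6% of 32851 mouse promoters of the same length (RefSeq, build GRCm38.p6). Of the 75 windows whose member was called higher with LPS in WT, 12 held them. A match is a description of letters, and an absence says that these letters are not in this window.

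Of the shortest members, 2 are stretches of 21 bases and are printed whole, to show how little sequence can carry an entry of the table (GRCm39, plus strand, no part in capitals). GSMG0028739 in Sp110, a nuclear body gene, read 16.0, 15.3 and 20.6 in nonconfined WT, 55.1, 45.4 and 52.1 in confined WT, 32.1, 30.7 and 25.2 in nonconfined KO and 31.3, 27.7 and 30.1 in confined KO libraries. Confined WT libraries were above the other 3 of these groups. GSMG0043187, 9129 bases downstream of Nyap1, read 22.9, 22.2 and 18.7 in nonconfined WT and 55.7, 58.6 and 59.7 in LPS WT libraries.
GSMG0028739, chr1:85526455-85526475: ctggacccgaagttatgctgc
GSMG0043187, chr5:137719012-137719032: taccactgactcgggtcctga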

How the data were processed

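The authors deposited gene counts divided by DESeq2 size factors, a signal in normalized counts (poly(A) strand-specific libraries, STAR 2.7.5a on mm39, featureCounts 1.5.0 on FAST DB genes, R 3.5.3). How reads with several places were counted is not stated. Every value was checked to be a whole number of reads times 1 factor per library (largest deviation 2.7e-09), and recovered reads ranged from 33027230 to 61300021 per library. Members were found by the empty symbol and a mean of at least 50 in at least 1 group. The members and lists were chosen with earlier results of these data known. Results that need withheld items are not reported here.

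Positions came from the coordinates in the table and GENCODE on GRCm39, and copies from blastn 2.17.0 with samtools 1.23.1. A copy covers at least 50% of the span at 95% identity. Motif shares came from RefSeq promoters, and longer motifs that were also searched are not reported. Log2 of the normalized count plus 1 was fitted with limma 3.58.1 (R 4.3.3, trend) over 18 libraries and 6 group means, for 17875 loci with at least 10 counts in at least 3 libraries, with Benjamini-Hochberg adjustment for each comparison. Tables were built with Python 3.11.15, pandas 2.3.3 and scipy 1.17.1.

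Members were named by a rule: the 10 with the highest mean, the 3 largest increases and 3 largest decreases in each comparison among members with a mean over 18 libraries of at least 50 that were called without overlap between groups, those on Y or the mitochondrial genome, 3 on either side of the level, the 3 longest and 3 shortest, called members whose nearest symbol is an interferon or NF-kB gene, and the nearest symbols of all these. Not every member that met this rule is described. Members named outside it were chosen after their values were seen, as were the copies singled out beside the 10 highest. Alternatives were pseudocounts of 0.5 and 5, other filters, scaling to the same total, TMM factors, edgeR 4.0.16, DESeq2 1.42.0, compared groups alone, a replicate block, other thresholds, other levels of membership, the nearest locus among those tested and leaving out each library. A fit without LPS libraries was added after the data had been seen.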

Additional observations from a re-analysis of the deposited data

Results flagged for a closer look

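For 6 members the change on confinement differed between WT and KO by the test of the difference itself (limma, n = 3 libraries per group, adjusted over 17875 loci), among the members named for that test. The difference was more positive in KO for GSMG0008184 (1.78, adjusted p 0.000131), GSMG0027496 (1.64, adjusted p 0.0116) and GSMG0029078 (1.57, adjusted p 2.67e-06). It was more negative in KO for GSMG0012912 (-5.52, adjusted p 3.59e-07), GSMG0013426 (-4.81, adjusted p 2.46e-13) and GSMG0048321 (-4.20, adjusted p 0.000426). GSMG0008184 went from 202, 193 and 255 to 92.8, 173 and 175 in WT and 119.9, 202 and 149 to 345, 371 and 332 in KO, so its direction differed. GSMG0013426 rose in both genotypes, from 41.9, 48.6 and 41.3 to 33924, 35454 and 35206 in WT and 40.0, 62.4 and 29.1 to 1136, 1205 and 1218 in KO. The size of the difference at GSMG0012912 depends on the pseudocount, since no nonconfined library had a read. That difference missed the threshold in edgeR (adjusted p 1). GSMG0048321 is 1 of the members correlated with GSMG0024764 in the ribosomal RNA region, with 72.1, 50.3 and 337 in LPS KO libraries, where LPS KO 3 stood apart. Groups of 3 libraries were not tested for a single library far from the others.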

How the results depend on the processing

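Each summary is the share of tested members called. The share over all loci was counted for the main fit only, so the shares under alternatives do not compare members with all loci. It was 23.1% for confinement in WT, 17.1% for confinement in KO, 12% for the interaction, 3.16% and 13% for KO against WT in nonconfined and confined libraries, 30.8% and 32.3% for LPS in WT and KO, and 0% for KO against WT with LPS. Under a fold change of 1.5 with unadjusted p under 0.05, these became 41.2%, 34.9%, 24.1%, 12%, 28.2%, 50.3%, 50.6% and 2.31%. With adjusted p under 0.05 alone, the first 7 became 48.8%, 43.9%, 22.4%, 7.79%, 36.6%, 58.4% and 59.4%. Both thresholds are looser by construction. The other alternatives kept each share within 1.5 times its value, apart from single libraries for KO against WT in nonconfined DCs: 1.62% without nonconfined WT replicate 2, 2.08% without nonconfined WT replicate 3 and 1.93% without nonconfined KO replicate 1, whose cause was not tested. Counts by direction moved more than these shares: the interaction called 47 members higher in the main fit, 25 without a filter and 27 without confined KO replicate 2, and KO against WT in nonconfined DCs called 15 lower in the main fit, 6 without nonconfined WT replicate 2 and 28 without nonconfined KO replicate 2.

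Leaving out each library in turn gave 21.8% to 25.3% for confinement in WT, 14.8% to 19.2% in KO, 10.4% to 12.6% for the interaction, 1.62% to 4.24% and 12% to 13.8% for KO against WT in nonconfined and confined libraries, 30.1% to 31.5% and 31.2% to 33.6% for LPS in WT and KO, and 0% to 0% for KO against WT with LPS. The fit without LPS libraries, chosen after seeing the data, gave 23.1%, 17% and 12.3% for confinement in WT, in KO and the interaction, and 3.39% and 13.4% for KO against WT.

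With replicate number as a block the shares were 23%, 16.8%, 11.6%, 2.78%, 13.1%, 30.8%, 32.1% and 0% in the order above. Residuals of same-numbered replicates correlated at 0.183, 0.106 and -0.064 between nonconfined and confined WT, and at 0.338, 0.208 and 0.04 between confined WT and KO, without a steady pairing. Intron members, however, deviated in the same direction in same-numbered confined WT and KO libraries.

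The share of members that overlap a locus with a symbol (61.6%) was 67.2% at a level of 20, 54.2% at 100 and 58.9% with a mean over 18 libraries of at least 50. The alternative on the same strand was not run, since the coordinates give no strand. For the changes of named members, 810 values under alternatives kept direction and side of the threshold, 11 kept direction and missed it, and 0 reversed. Those that missed had adjusted p 0.0553 for GSMG0053559 (confined KO, without replicate 2), 1 for GSMG0012912 (interaction, edgeR), 0.052 for GSMG0017440 (KO against WT, nonconfined, edgeR) and 0.0511 to 0.168 in 8 alternatives for GSMG0035396. The cause was not tested. Reads per library limit the members near the level, where 1 read is 0.762 to 1.23 normalized counts and most small values are even numbers of reads.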
